A study of Mus musculus with 5 samples.

Results

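The T cell receptor V segment rows were all gene rows whose symbol starts with Trav (alpha chain) or Trbv (beta chain), 163 of the 31053 rows of the tables, 128 Trav and 35 Trbv. They were read in T barcodes, defined as cell barcodes with at least 2 unique molecular identifiers (UMIs, 1 per captured RNA molecule) over Cd3d, Cd3e and Cd3g. A T barcode was called CD8 when Cd8a and Cd8b1 together had at least 1 UMI and Cd4 had 0, and CD4 in the reverse case. The series holds 5 single-cell 5′ RNA libraries (10x Genomics) from pooled mouse hearts, sorted for DRAQ5+DAPI- cells, that is nucleated and viable ones. The control libraries (replicates 1 and 2, called control 1 and 2) came from Ctla4+/+Pdcd1-/- mice, 4 in all. The disease libraries (replicates 3, 4 and 5, called disease 3, 4 and 5) came from Ctla4+/-Pdcd1-/- mice, 10 in all, a model of immune checkpoint inhibitor myocarditis. Every mouse thus lacked Pdcd1, the gene of PD-1, and the groups differed in 1 copy of Ctla4. The design text gives these genotypes for all libraries, while the genotype tags of some samples read Pdcd2 or Pdcd3. How many hearts entered each library and the age of the mice are not given in the sources used here, so p-values measure only the spread between pooled libraries.

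Each alpha-beta T cell assembles its receptor genes by joining a V segment to a J segment, with a D segment between them in the beta chain. The joined gene, and with it the V segment, is passed on to the descendants of the cell. The beta locus usually yields a single productive chain per cell, while the alpha locus rearranges on both chromosomes and can leave RNA of more than 1 V segment. A pair of alpha and beta V segments held by many cells therefore describes a repertoire, but cells of different clones can share V segments, and the joined CDR3 sequence that identifies a clone was not analysed here.

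The Trav rows lie between bases 52427928 and 53977678 of chromosome 14 and the Trbv rows between 40891229 and 41558452 of chromosome 6 (GRCm38, GENCODE M21). The segments of the leading CD8 pairs of disease 4 (Trav7-3 with Trbv2), disease 5 (Trav3-3 with Trbv19) and control 1 (Trav4-3 with Trbv4) are shown because these pairs carry the results. Printed are the last 90 coding bases, 5′ to 3′, of the reference, with the last in-frame TGT or TGC codon in capitals, the cysteine at which the CDR3 begins.
Trav7-3: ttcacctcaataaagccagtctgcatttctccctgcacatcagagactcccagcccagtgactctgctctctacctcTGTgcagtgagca
Trbv2: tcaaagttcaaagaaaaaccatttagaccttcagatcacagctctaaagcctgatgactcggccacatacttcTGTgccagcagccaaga
Trav3-3: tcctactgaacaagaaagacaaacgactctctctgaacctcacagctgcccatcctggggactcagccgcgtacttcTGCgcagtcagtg
Trbv19: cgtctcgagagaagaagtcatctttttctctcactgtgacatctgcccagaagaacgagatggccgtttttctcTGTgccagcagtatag
Trav4-3: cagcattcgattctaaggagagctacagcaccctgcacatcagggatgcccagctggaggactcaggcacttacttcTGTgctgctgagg
Trbv4: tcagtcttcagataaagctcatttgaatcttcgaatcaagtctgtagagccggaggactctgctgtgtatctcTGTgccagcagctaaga
These segments have 2 exons each, are on the plus strand and lie at chr14:53443249-53443839 (Trav7-3), chr6:41047340-41047995 (Trbv2), chr14:53665929-53666506 (Trav3-3), chr6:41178375-41179048 (Trbv19), chr14:53598828-53599410 (Trav4-3) and chr6:41059394-41059886 (Trbv4).

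The mouse alpha locus contains duplicated blocks of V segments, whose copies carry d and n in their symbols, and this sets which alpha segments can be told apart. Of the 108 Trav rows annotated as V genes, 54 had a nearest other Trav at 98% identity or more and 30 had an exact copy. The median identity to the nearest other segment was 98.1% for Trav and 64.7% for Trbv, and none of the 22 Trbv genes reached 98%. The 30 Trav rows with an exact copy held 150 UMIs in T barcodes, 0.731% of the Trav UMIs, with a median of 1 UMI against 73 for the 78 without a copy. Trav7-3 and Trav3-3 are 99.4 and 98.8% identical to Trav7d-3 and Trav3d-3. How reads shared between copies were counted is not given in the sources used here, so the use of copied segments is uncertain. Trav6-6 and Trav6n-6 are printed because the latter carries a result below. Trav6-6 and Trav6d-6 are identical over 344 coding bases, and Trav6n-6 differs from both at 9 positions, shown in capitals over coding bases 45 to 340.
Trav6-6: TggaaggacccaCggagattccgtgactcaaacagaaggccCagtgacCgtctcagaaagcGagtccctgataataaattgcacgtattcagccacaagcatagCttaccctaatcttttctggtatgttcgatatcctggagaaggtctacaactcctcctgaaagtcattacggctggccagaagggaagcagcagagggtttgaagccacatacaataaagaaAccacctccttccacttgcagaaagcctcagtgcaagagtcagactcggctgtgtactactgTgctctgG
Trav6n-6: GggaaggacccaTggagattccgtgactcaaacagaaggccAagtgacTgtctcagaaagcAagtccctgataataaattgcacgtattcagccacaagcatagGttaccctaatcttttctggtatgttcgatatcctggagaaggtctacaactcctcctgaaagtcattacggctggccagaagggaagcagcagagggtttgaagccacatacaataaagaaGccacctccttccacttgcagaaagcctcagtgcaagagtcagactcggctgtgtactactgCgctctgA
Trav6n-6 (chr14:53132679-53133137) held 852 UMIs in T barcodes, Trav6-6 held 11 and Trav6d-6 held 1.

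In T barcodes, 101 Trav and 26 Trbv rows had a UMI, 25 and 20 of them in all 5 libraries. The libraries held 861 and 108 T barcodes in controls 1 and 2 and 175, 3131 and 741 in diseases 3, 4 and 5. Of these 599, 45, 90, 2399 and 579 were CD8 and 57, 22, 29, 193 and 45 were CD4, in the same order. Median depth was 3786 to 4645 UMIs per T barcode. All 6 T cell markers were detected in every library and summed to 4727, 2693, 4031, 6077 and 5901 CPM (UMIs scaled to a common total per library). In the same T barcodes the summed markers of macrophages, endothelial cells and fibroblasts stood at 77.7 to 2369, 901 to 1749 and 1364 to 4850 CPM. The fibroblast sum of control 1, 4850 CPM, exceeded its T cell sum. Markers of natural killer and B cells summed to 130 to 303 and 14.5 to 82.8 CPM. Each barcode was given the Trav and the Trbv segment with most UMIs, and none where the highest were tied. Both chains were called in 56.9, 46.3, 53.1, 65.5 and 69.6% of T barcodes. With each barcode thinned to 1000 UMIs (16, 4, 8, 147 and 13 shallower barcodes left out), a Trav UMI was expected in 36.0, 24.5, 32.8, 54.1 and 43.2% and a Trbv UMI in 64.1 to 74.0%; unthinned, the shares were 64.1, 53.7, 59.4, 77.7 and 76.5% and 83.3 to 91.6%. Barcodes with at least 2 UMIs of Pecam1 and Cdh5, endothelial genes, and no Cd3 UMI had a Trbv UMI in 3.05, 0.182, 0.396, 8.62 and 1.38% of cases at median depths of 2578.5 to 3338 UMIs, so free receptor RNA was highest in disease 4. Any pair of libraries shared 86 to 161 barcode sequences, of which 11 in all were T barcodes in both, and none of these had the same receptor pair in both.

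Segments differed in the number of UMIs they left in a barcode. Among 19 Trbv segments with at least 20 called T barcodes, the median UMIs per called barcode ran from 3 for Trbv2 to 24 for Trbv15. Trbv15 held the most UMIs, 9657, in 333 called barcodes, while Trbv19 held 6910 in 649 and Trbv2 held 2110 in 487. Among 35 Trav segments the median ran from 1 (Trav12n-3) to 6 (Trav7-3). Use is therefore given as shares of called barcodes, with 95% Wilson intervals that cover counting error only, and barcodes of a library share their mice.

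In CD8 barcodes, which recognise peptides on MHC class I, each of the larger libraries was led by an alpha segment of its own. Trav7-3 was called in 8.50 and 7.14% of the CD8 barcodes with an alpha call in controls 1 and 2, and in 0, 29.0 and 0.446% in diseases 3, 4 and 5. It stood highest in disease 4 (540 of 1863, interval 27 to 31.1%) and lowest in the other disease libraries. Trav3-3 was called in 5.50, 0, 9.09, 0.913 and 30.4%, highest in disease 5 (136 of 448, interval 26.3 to 34.8%). Trav4-3 was called in 20.8, 0, 0, 7.57 and 1.34%, highest in control 1 (83 of 400, interval 17.1 to 25.0%). A count of 0 allows up to 10.7% among the 28 alpha calls of control 2 and up to 5.45% among the 55 of disease 3. The genotype groups overlapped for all 3 segments.

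The other frequent alpha segments were also uneven between libraries. Trav17 was called in 203 CD8 barcodes of disease 4 (10.9%) and in 0, 0, 1 and 1 of controls 1 and 2 and diseases 3 and 5. Trav16n took 12% in control 1 and 1.12 to 4.19% in the other 4 libraries. Trav3-4 took 11.8% in control 1, 5.74% in disease 4 and 0.446% in disease 5, with 0 in control 2 and disease 3. Trav7-5 took 8.48% in disease 5 and 5.45% in disease 3, with 0, 3.57 and 0.161% in controls 1 and 2 and disease 4. Trav13-1 was more even, at 7, 7.14, 9.09, 2.63 and 5.13%. In all, 83 Trav segments were called in CD8 barcodes and 9 of them in every library.

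Of the beta segments, 22 were called in CD8 barcodes, 15 of them in every library, and the leader again changed. Trbv13-2 was called in 37.9 and 13.6% of the CD8 barcodes with a beta call in controls 1 and 2, against 5.81, 3.23 and 12.6% in diseases 3, 4 and 5. Both control shares stood above the 3 disease shares, but the intervals of control 2 (6 of 44) and disease 5 (70 of 555) overlapped. Trbv19 was called in 2.85, 11.4, 6.98, 16.7 and 29.7%, with control 2 above disease 3. Trbv2 was called in 0.356, 2.27, 1.16, 20.4 and 0.721%, and only disease 4 exceeded 3%. Trbv3 led disease 3 with 14 of 86 barcodes (16.3%) and took 3.56, 6.82, 4.57 and 8.47% elsewhere. Trbv14 took 11.4% in control 2 (5 barcodes) and 1.08 to 2.86% elsewhere. Trbv1, Trbv12-1 and Trbv16 took 3.14 to 9.43%, 2.67 to 11.4% and 2.67 to 10.4%.

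**Figure D1:**
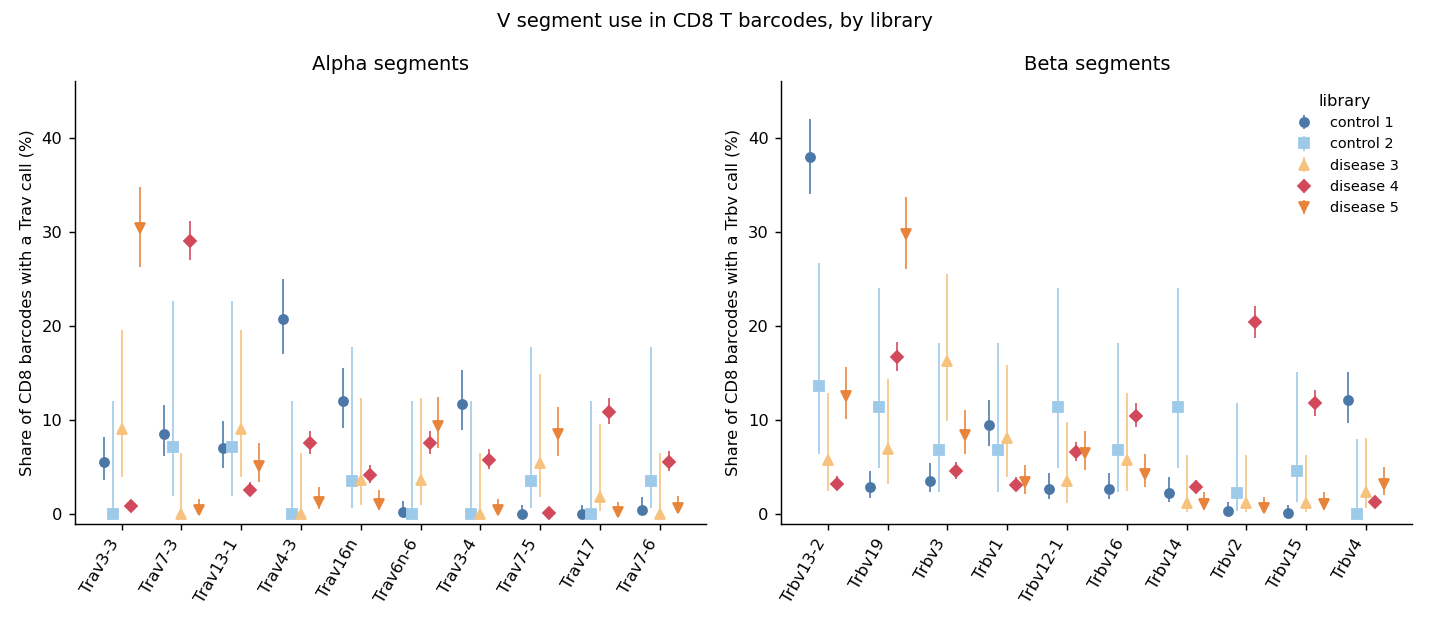
Share of CD8 barcodes called for each named alpha segment (of barcodes with an alpha call) and beta segment (of barcodes with a beta call), in percent, by library, with 95% Wilson intervals. The highest values belong to different libraries, such as Trav7-3 at 29.0% in disease 4 and Trbv13-2 at 37.9% in control 1.

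When the alpha and beta calls of each barcode were joined, most paired CD8 barcodes of the 3 larger libraries fell into few pairs. A pair was called recurrent when it was held by at least 5 barcodes and 1% of the paired CD8 barcodes of a library. In control 1, 16 recurrent pairs held 270 of 382 barcodes (70.7%, interval 65.9 to 75.0%). In disease 4, 14 held 1318 of 1714 (76.9%, interval 74.8 to 78.8%), and in disease 5, 11 held 262 of 432 (60.6%, interval 56.0 to 65.1%). Control 2 and disease 3 had 28 and 54 paired CD8 barcodes and no recurrent pair. At a common size of 28 barcodes, 17.5 and 27 distinct pairs were expected in controls 1 and 2, against 23.9, 14.9 and 17.1 in diseases 3, 4 and 5. Control 1 thus stood beside diseases 4 and 5. The smallest recurrent pair held 5, 18 and 5 barcodes in control 1, disease 4 and disease 5, and the largest pair outside the rule held 4, 17 and 4.

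**Figure D2:**
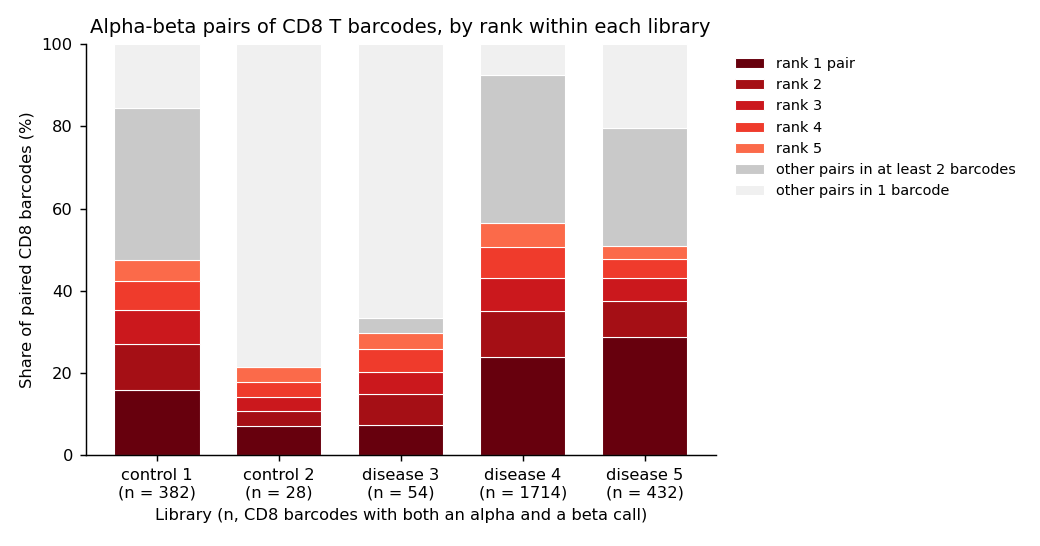
Paired CD8 barcodes of each library divided by the rank of their alpha-beta pair, in percent. The 5 leading pairs held 47.4% in control 1, 56.6% in disease 4 and 50.9% in disease 5, against 21.4% in control 2 and 29.6% in disease 3.

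Disease 4 was led by Trav7-3 with Trbv2, in 411 of 1714 paired CD8 barcodes (24.0%, interval 22.0 to 26.1%), where the product of the segments' shares gives 116. Of the paired barcodes with Trbv2, 98.3% had Trav7-3, and of those with Trav7-3, 86.3% had Trbv2. The pair's barcodes held a median of 7 UMIs of Trav7-3 and 3 of Trbv2. Among 1938 endothelial-marker barcodes of that library 0 had UMIs of both segments, which allows up to 0.155%. Trav17 with Trbv19 followed with 191 barcodes (34.9 from the product) and Trav6n-6 with Trbv15 with 137 (15.9 from the product). Trav8d-1 with Trbv16 had 127 (13.2 from the product) and Trav3-4 with Trbv12-2 had 104 (7.77 from the product). Trav3-4 was joined with Trbv12-2 in 100% of its paired CD8 barcodes in disease 4 and with Trbv13-2 in 71.1% in control 1.

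Disease 5 was led by Trav3-3 with Trbv19, in 124 of 432 paired CD8 barcodes (28.7%, interval 24.6 to 33.1%), where the product gives 46.2. Next came Trav6n-6 with Trbv13-2 (38 barcodes, 5.22 from the product), Trav13-4-dv7 with Trbv3 (24), Trav7-5 with Trbv12-1 (20) and Trav7-5 with Trbv4 (14). Segments that were frequent in both large disease libraries thus had different partners. Trbv19 was joined mostly with Trav17 in disease 4 (63.2% of its paired barcodes) and with Trav3-3 in disease 5 (82.7%). Trav6n-6 was joined with Trbv15 in disease 4 (98.6%) and with Trbv13-2 in disease 5 (92.7%).

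Control 1 was led by Trav4-3 with Trbv4, in 61 of 382 paired CD8 barcodes (16.0%, interval 12.6 to 20%), where the product gives 14.0. Its high share of Trbv13-2 was divided between several pairs, led by Trav16n with Trbv13-2 (42 barcodes, 13.8 from the product) and Trav3-4 with Trbv13-2 (32, 13.2 from the product). Trav7-3 with Trbv1 (27) and Trav3-3 with Trbv13-1 (19) followed. In disease 3 the largest pairs, Trav16d-dv11 with Trbv1 and Trav3-3 with Trbv29, held 4 of 54 barcodes each. In control 2 Trav7-4 with Trbv13-2 held 2 of 28.

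Most recurrent pairs were rare outside their library. The 41 recurrent entries were 40 different pairs, since Trav13-1 with Trbv26 was recurrent in control 1 (16 CD8 barcodes) and in disease 5 (7). Over all T barcodes, Trav7-3 with Trbv2 was in 424 of disease 4 and in 0 of the 1149 paired T barcodes of the other libraries, which allows up to 0.261%. Trav3-3 with Trbv19 was in 133 T barcodes of disease 5 and 2 of 2685 elsewhere. Trav4-3 with Trbv4 was in 75 of control 1 and 2 of 2711 elsewhere. Of the 41 entries, 17 had 0 T barcodes elsewhere and 6 had 5 or more. A pair of CD8 barcodes drawn from different libraries shared the receptor pair in 0.0378 to 0.379% of draws (median 0.0851% over 10 pairs of libraries).

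**Figure D3:**
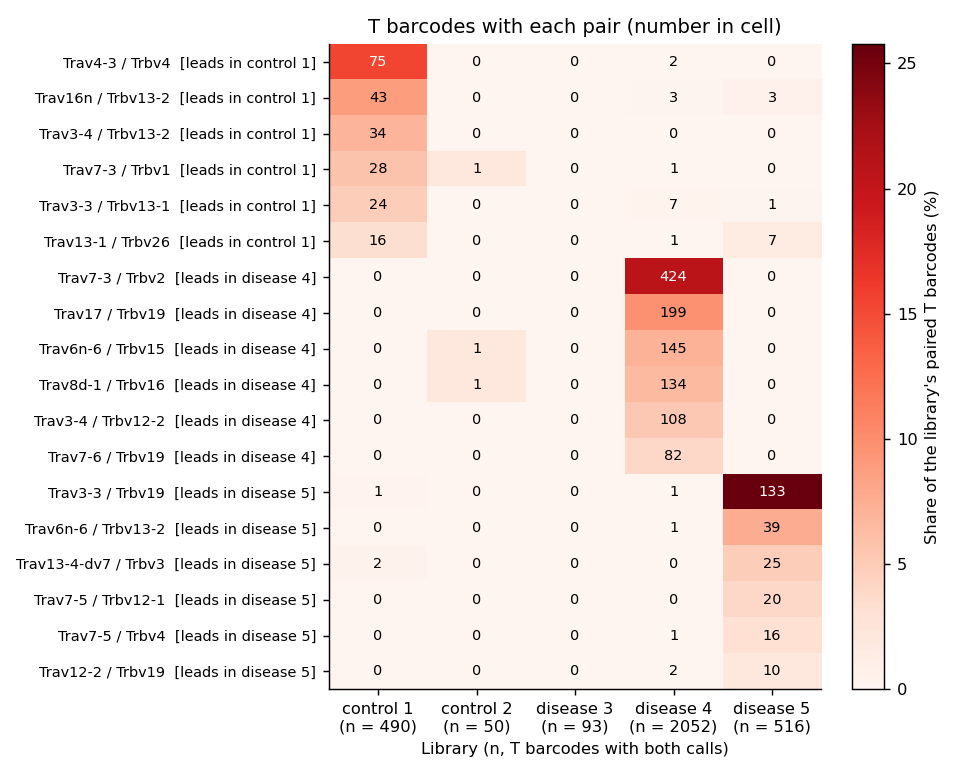
T barcodes holding the leading recurrent CD8 pairs (rows) in each of the 5 libraries (columns). High counts lie in the library each pair leads in, such as 424 for Trav7-3 with Trbv2 in disease 4 and 133 for Trav3-3 with Trbv19 in disease 5.

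The probability that 2 barcodes of a library share a segment or pair describes how concentrated its repertoire was. Among CD8 pairs, controls 1 and 2 had probabilities of 5.67 and 0.265%, and diseases 3, 4 and 5 had 1.40, 9.14 and 9.77%. The groups overlapped, and the means (2.97 ± 3.82%, SD, n = 2 controls; 6.77 ± 4.66%, SD, n = 3 disease) differed by 3.80 percentage points, with a two-sided exact permutation p of 0.4 (0.875 after Benjamini-Hochberg adjustment over 7 sharing comparisons). With 1 library left out, this difference ran from 1.1 (without control 2) to 6.51 percentage points (without control 1), with 6.49 without disease 3, 2.62 without disease 4 and 2.30 without disease 5. For CD8 Trav segments the values were 8.96, 1.59, 2.83, 12.3 and 11.9% (exact permutation p = 0.5, adjusted 0.875). Their difference of 3.75 percentage points was 0.0592 without control 2, 7.43 without control 1, 6.84 without disease 3, 2.10 without disease 4 and 2.30 without disease 5. For CD8 Trbv segments they were 18.0, 6.45, 6.92, 11.1 and 13.2% (exact permutation p = 0.8, adjusted 0.9), and the sign of this difference turned without control 1 (3.98 percentage points). The smallest p that 2 against 3 libraries allow is 0.1. The 3 libraries with most CD8 barcodes had the 3 highest pair values, and the part of cell number in this was not tested.

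CD4 barcodes, which recognise peptides on MHC class II, shared most leading beta segments with CD8 barcodes but none of the leading alpha segments. By mean share, Trbv19, Trbv13-2 and Trbv1 were among the 4 leading beta segments of both classes, and Trbv5 was among them in CD4 barcodes only. Trbv5 was called in 12.8, 5.00, 14.8, 20.9 and 7.32% of the CD4 barcodes with a beta call, and Trbv19 in 10.6, 20, 11.1, 13.0 and 12.2%. Trbv13-2 took 6.38, 5.00, 18.5, 4.52 and 24.4% and Trbv1 4.52 to 15.0%. Of the alpha segments, Trav4-4-dv10 took 14.8, 12.5, 14.3, 2.84 and 0%, where 0 of 33 calls allows up to 9.09%. Trav6-7-dv9 took 7.41, 0, 9.52, 3.55 and 12.1%, Trav14n-3 0 to 12.5% and Trav14d-3-dv8 2.13 to 6.25%. With 16 to 33 alpha calls in all libraries but disease 4, these alpha shares rest on at most 4 barcodes each there.

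CD4 pair sharing was 0.725, 0, 0, 3.89 and 0.460%, below the CD8 value in 5 of 5 libraries. In control 2 the CD4 value came from 14 paired barcodes, and the CD8 value rested on a pair in 2 of 28. The mean difference was 4.23 ± 3.57 percentage points (SD, n = 5), with a two-sided exact sign-flip permutation p of 0.0625, the smallest that 5 libraries allow (0.35 adjusted). Between genotypes it differed by 1.09 percentage points (exact permutation p = 0.9), with the sign turned without disease 4 (-0.132). CD4 Trav sharing was 3.99, 1.67, 2.38, 4.96 and 2.65% (exact permutation p = 0.7), and its sign turned without control 2 (-0.656) or disease 4 (-0.311). CD4 Trbv sharing was 6.20 and 6.84% in controls 1 and 2 against 8.26, 8.71 and 9.27% in diseases 3, 4 and 5, so the groups did not overlap. Its exact permutation p was 0.1, the smallest possible, and 0.35 adjusted. The groups overlapped, and the exact permutation p was 0.3, when V segment families replaced segments. They also overlapped (exact permutation p = 0.2) without mixed barcodes, those with at least 2 UMIs of each of 2 or more Trbv segments or at least 5 UMIs over the markers of another cell type.

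Trav12-3 with Trbv5 was a recurrent pair among the CD4 barcodes of disease 4, in 26 of 135 (19.3%, interval 13.5 to 26.7%), where the product gives 6.36. The other libraries had 24, 14, 20 and 30 paired CD4 barcodes, where a minimum of 5 barcodes is a large share, and had no recurrent pair. It was held by 0 CD8 barcodes. Summed over 9 effector genes such as Gzmb, Nkg7 and Ccl5, its barcodes stood at 11311 CPM against 5911 CPM in the other 109 paired CD4 barcodes. These are sums over barcodes of a single library and were not tested. Recurrent CD8 pairs were held by 3 of 135 paired CD4 barcodes in disease 4 and by 0 of 24 and 0 of 30 in control 1 and disease 5, which allows up to 12.5 and 10.0%.

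In the comparison of CD8 with CD4 barcodes (UMIs summed per library, edgeR quasi-likelihood test with library as block), 17 V segments passed the filter on low counts. At an adjusted p under 0.05, 3 were called, 1 higher and 2 lower in CD8, beside 4.71% of all 4200 genes (2.29% higher, 2.43% lower). The 198 calls over all genes became 93 without disease 4, 117 without disease 5 and 120 without control 1. They became 239 without control 2 and 252 without disease 3. Trbv31 lies beyond the beta constant genes on the minus strand (chr6:41557691-41558452). It stood at 5.29, 0, 0, 6.88 and 7.43 CPM (TMM-scaled) in CD8 and 71.2, 207, 108, 124 and 163 CPM in CD4 barcodes of controls 1 and 2 and diseases 3, 4 and 5. CD8 was lower in 5 of 5 libraries and the classes did not overlap (log2 difference -4.31, SE 0.31, edgeR adjusted p = 2.19e-06). The CD4 levels rest on 4, 1, 1, 14 and 4 barcodes with a Trbv31 UMI, and the CD8 levels on 4, 0, 0, 17 and 8. Trbv31 passed the filter on low counts only through the CD4 sums, where it was high, so its call and the lack of overlap are given as a description.

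Trbv5 (chr6:41062332-41062803) stood at 35.5, 27.2, 10.7, 30.4 and 18.9 CPM in CD8 and 88.3, 13.8, 162, 380 and 174 CPM in CD4 barcodes. CD8 was lower in 4 of 5 libraries, and control 2, with 5 CD8 UMIs and 1 CD4 UMI, went the other way (log2 difference -2.82, SE 0.39, edgeR adjusted p = 7.08e-04). In disease 4, 26 of the 37 CD4 barcodes called for Trbv5 held the recurrent pair with Trav12-3, and without this library Trbv5 was not tested. Without the library block its adjusted p was 0.0635, at a range of 1.38e-24 to 0.0635 over 10 alternatives. Trbv12-1 (chr6:41113550-41114067) stood at 29.2, 125, 56.0, 43.1 and 71.9 CPM in CD8 and 11.4, 0, 0, 3.64 and 44.9 CPM in CD4 barcodes. CD8 was higher in 5 of 5 libraries (log2 difference 2.23, SE 0.49, edgeR adjusted p = 0.0177), with 1, 0, 0, 2 and 1 CD4 barcodes holding a UMI. Trbv12-1 passed the filter through the CD8 sums, where it was high, and its call is likewise a description. The call was lost without control 2 (edgeR adjusted p = 0.0536), without disease 4 (0.163) and without the block (0.364), at a range of 2.24e-08 to 0.364 over 10 alternatives.

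**Figure D4:**
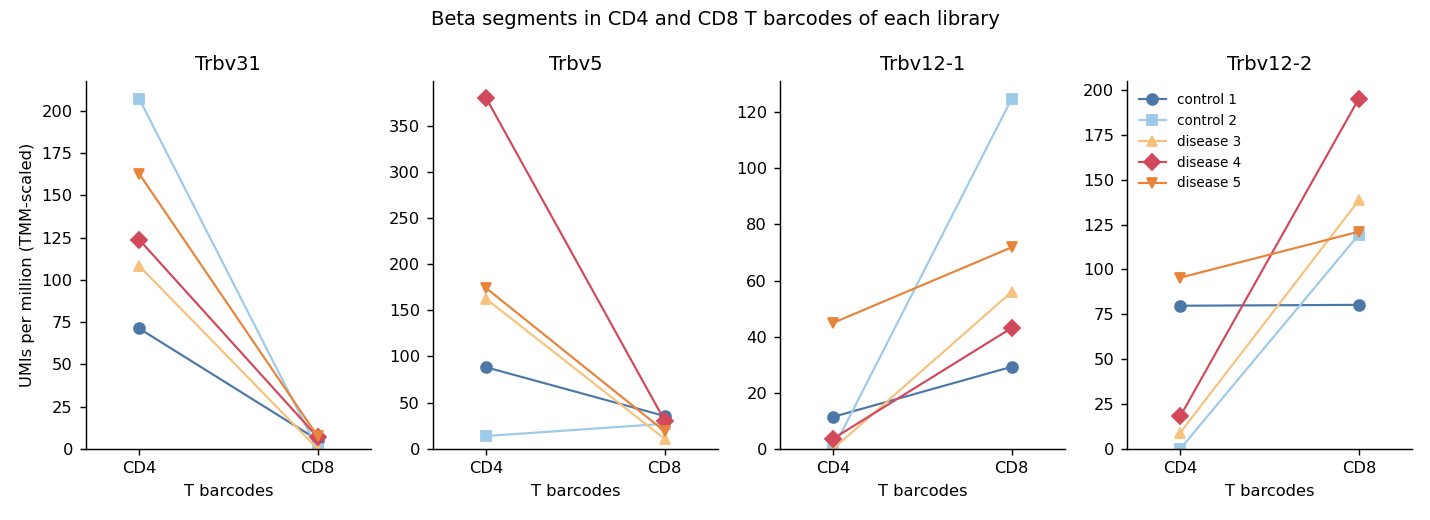
Level of beta segments in the summed CD4 and CD8 barcodes of each library, in TMM-scaled CPM; lines join the values of a library. Trbv31 is lower in CD8 in 5 of 5 libraries and Trbv5 in 4, while Trbv12-1 is higher in CD8 in 5.

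The other 14 segments were not called, although 8 of the 17 had an unadjusted p under 0.05. Counts at an unadjusted p, here and below, have no share over all genes beside them. Trbv12-2, 88.2% identical to Trbv12-1, was also higher in CD8 in 5 of 5 libraries (log2 difference 1.60, SE 0.49, edgeR adjusted p = 0.0999). Trbv15 stood lower in CD8 in 4 libraries and higher in disease 4, at 700 against 118 CPM (log2 difference -2.72, SE 1.11, edgeR adjusted p = 0.253). Trbv13-2 and Trbv19 differed by 0.47 (SE 0.50) and 0.14 (SE 0.33). Without disease 3, 6 segments were called, beside 252 of 5708 genes. A test of whether the CD8 minus CD4 difference differed between genotypes called 0 of 17 segments with edgeR (5 at an unadjusted p under 0.05; DESeq2 was not run for it), beside 0.0238% of 4200 genes, and the lowest adjusted p was 0.0870 for Trbv13-2.

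Of 24 tested genes of the receptor complex and its first signalling steps, 1 was higher and 3 were lower in CD8 barcodes, beside 2.29 and 2.43% of all genes, with a median of -0.07 against 0.02 over all genes. The list contains the Cd3 genes that defined T barcodes. Ptpn22, a phosphatase that restrains receptor signalling, was higher (log2 difference 0.89, SE 0.15, edgeR adjusted p = 0.00229). Cd5 and Cd6, surface regulators of receptor signalling, and Cd247, the zeta chain, were lower, with log2 differences of -1.10, -0.85 and -0.71 (edgeR adjusted p = 7.96e-04, 0.00389 and 0.0271). The assembly genes Rag1, Rag2, Dntt and Ptcra passed the filter in none of these fits.

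Between the genotypes few V segments differed beyond the spread between libraries. Over all T barcodes edgeR called 0 of 65, beside 4.55% of 11417 genes (0.00876% higher, 4.55% lower). There 12 had an unadjusted p under 0.05, and DESeq2 called 4, beside 618 of 11417 genes. In CD4 barcodes edgeR called 0 of 15, beside 3.24% of 2837 genes (0.106% higher, 3.14% lower). Of these, 4 had an unadjusted p under 0.05, and DESeq2 called 0, beside 100 of 2837 genes. In CD8 barcodes edgeR called 1 of 57, higher in disease, beside 3.42% of 10760 genes (0.0186% higher, 3.4% lower). An unadjusted p under 0.05 was seen for 13, and DESeq2 called 2, beside 327 of 10760 genes. The segments tested are those that passed the filter on low counts, of 163 rows. The calls over all genes changed with the libraries kept, and the part of the smaller number of libraries in this was not tested. Fits left with a single control are not counted here. In CD8 barcodes the calls went from 368 to 0 without disease 5, 37 without disease 4 and 222 without disease 3. In all T barcodes they went from 520 to 1 without disease 5, 108 without disease 4 and 383 without disease 3. In CD4 barcodes they went from 92 to 0 without disease 5, 1 without disease 4 and 71 without disease 3.

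The called segment was Trav6n-6, which had 0.546 and 0 CPM in controls 1 and 2 against 5.00, 50.0 and 46.9 CPM in diseases 3, 4 and 5, so the groups did not overlap. Its fitted log2 difference of 6.14 (SE 1.17, edgeR adjusted p = 0.0352) is no bound, since the controls held 2 and 0 UMIs, and disease 3 held 2. The segment passed the filter on low counts only through the disease libraries, where it was high, so its call and the lack of overlap are given as a description. Of the CD8 barcodes with an alpha call, 0.250 and 0% of the control ones and 3.64, 7.57 and 9.38% of the disease ones were called for it. The adjusted p was 0.295 without control 1 and 0.114 without control 2, at a range of 1.21e-12 to 0.295 over 8 alternatives, and without disease 4 or disease 5 the segment was not tested. Over all T barcodes Trav6n-6 had 0.387 and 4.47 CPM in controls 1 and 2 against 2.81, 42.4 and 40.4 CPM in diseases 3, 4 and 5. There control 2 stood above disease 3 (edgeR adjusted p = 0.106). As described above, its partners differed between diseases 4 and 5.

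The other segments with large differences in mean share varied widely within the genotype groups. Trbv13-2 had 667 and 306 CPM in the control CD8 sums and 145, 74.5 and 295 in disease (log2 difference -1.52, SE 0.57, edgeR adjusted p = 0.286). Trbv19 had 38.5 and 121 in the controls and 85.0, 341 and 516 in disease (2.15, SE 0.81, adjusted p = 0.280). Trbv2 had 2.18 and 12.9 against 7.5, 156 and 4.42 (4.13, SE 1.93, adjusted p = 0.426), and Trav3-3 had 30.6 and 4.31 against 65.0, 7.28 and 193 (1.95, SE 1.22, adjusted p = 0.572). None of these 4 passed the test. Of the 25 receptor complex genes edgeR called 0 in CD8 barcodes, with 2 at an unadjusted p under 0.05, beside 3.42% of all genes (0.0186% higher). Their fitted differences were above 0 for 19 of 25, with a median of 0.39 against 0.04 over all genes. Trac, Trbc1 and Trbc2, the constant regions, differed by 0.61, 0.57 and 0.76 (edgeR adjusted p = 0.558, 0.459 and 0.432).

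Several recurrent pairs carried RNA of a particular further alpha segment. In disease 4, 121 of the 199 T barcodes with Trav17 and Trbv19 (60.8%, interval 53.9 to 67.3%) had at least 2 UMIs of Trav7-6, against 6.53% of the other paired T barcodes of the library. Conversely, 55 of the 82 with Trav7-6 and Trbv19 (67.1%, interval 56.3 to 76.3%) had at least 2 UMIs of Trav17, against 11.4%. Barcodes with RNA of both alpha segments were thus divided between 2 named pairs by which segment had more UMIs. These segments lie 89.9 kb apart and are 53.4% identical. Trav4-3 with Trbv12-1 held Trav9-1 in 32 of 65 barcodes (49.2%) against 1.71%. Trav7-3 with Trbv2 held Trav12-3 in 73 of 424 (17.2%) against 2.89%. In disease 5, Trav3-3 with Trbv19 held Trav12-2 in 19 of 133 (14.3%) against 6.53%, and in control 1, Trav4-3 with Trbv4 held Trav9-4 in 9 of 75 (12%) against 1.2%.

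**Figure D5:**
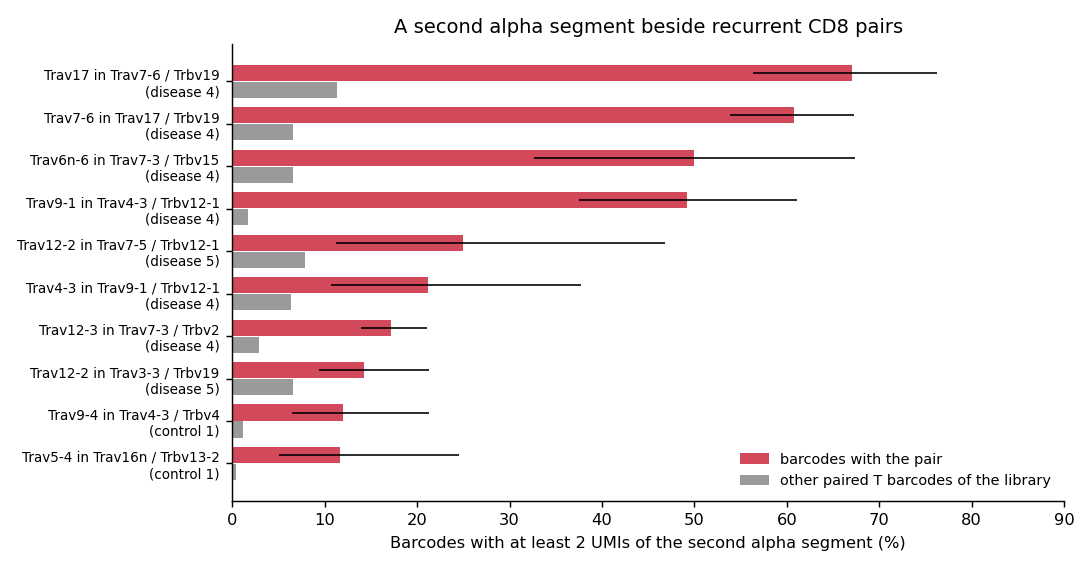
Percent of T barcodes with a recurrent CD8 pair that had at least 2 UMIs of a further alpha segment, with 95% Wilson intervals, beside the percent among the other paired T barcodes of the same library. Trav17 and Trav7-6 occur in each other's pairs at 67.1 and 60.8%.

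Over all T barcodes, at least 2 UMIs of each of 2 or more Trav segments were seen in 5.92, 1.85, 4.00, 17.5 and 10.4%, and of 2 or more Trbv segments in 7.78, 5.56, 4.00, 12.5 and 13.0%. Disease 4, with the most free receptor RNA, had the highest Trav value, and the part of free RNA or doublets in it was not tested. Of the 41 recurrent entries, chosen for high counts in these same barcodes, 39 exceeded the product of their segments' shares, as a description only. The others were Trav4-3 with Trbv13-2 in control 1 (5 barcodes, 24.0 from the product) and Trav7-3 with Trbv15 in disease 4 (28, 54.4 from the product). In the latter, 50.0% of barcodes had at least 2 UMIs of Trav6n-6, the main partner of Trbv15 there.

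J segment rows marked some pairs, in the few barcodes where one was counted. Traj13 was called in 14 of 16 such T barcodes of Trav7-3 with Trbv2 and in 2 of 70 of the other paired T barcodes of disease 4. Traj12 was called in 16 of 18 of Trav6n-6 with Trbv15, against 6 of 68. Traj48 was called in 5 of 5 of Trav17 with Trbv19, against 5 of 81, and in 3 of 3 of Trav7-6 with Trbv19. Trbj2-1 was called in 43 of 46 of Trav7-3 with Trbv2 but also in 77 of 104 others. Trbc1 gave 45.9% of the Trbc1 and Trbc2 UMIs in Trav3-4 with Trbv12-2 and 1.07% in Trav6n-6 with Trbv15. These constant genes are near-identical in sequence, so the split between them is uncertain.

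Barcodes with recurrent pairs were compared with the other paired CD8 barcodes of their library by summed gene levels. The effector sums had ratios of 1.17 in control 1, 1.21 in disease 4 and 1.15 in disease 5, recurrent over other pairs. Ccl5 gave most of these sums, such as 21444 of 28680 CPM in the recurrent pairs of control 1. Ccl5 and Nkg7 were higher in recurrent pairs in each of these libraries, while other genes of the list were mixed. Gzmb had 633, 799 and 555 CPM in recurrent against 390, 654 and 666 CPM in other pairs. Gzmk had 307, 220 and 245 CPM against 276, 348 and 235 CPM. Cycling genes such as Mki67 and Top2a had ratios of 1.18, 1.24 and 0.680, so disease 5 went the other way. Median depth was 4577.5 to 6006.5 UMIs in recurrent and 4179 to 4902.5 in other pairs. No test was made over these 3 libraries. Within disease 4 the effector sum was 41083 CPM for Trav8d-1 with Trbv16 and 28735 CPM for Trav6n-6 with Trbv15.

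Segments of invariant T cells were rarely called. Trav11 is 99.7% identical to Trav11d, so its count carries the uncertainty of copied segments given above. Trav11 and Trav11d, of the group used by natural killer T cells, were called in 0 T barcodes. Trav11n, annotated as a pseudogene, was called in 1, in disease 5 with Trbv13-3. Trav1, used by mucosal-associated invariant T cells, was called in 2, 0, 1, 1 and 1 T barcodes. Genes of gamma delta T cells, which carry another receptor, went in both directions. Summed over 6 of them they stood at 355 and 151 CPM in T barcodes of controls 1 and 2, against 225, 535 and 545 CPM for diseases 3, 4 and 5. Trgv2, a gamma V segment, had 219, 20.4, 109, 395 and 387 CPM, and the gamma constant genes Tcrg-C2 and Tcrg-C4 were also highest in diseases 4 and 5. Trdc, the delta chain constant gene, had 6.42, 16.3, 8.96, 2.46 and 1.00 CPM, lowest in diseases 4 and 5, and Trdv4, a delta V segment, had 46.2, 81.7, 55.0, 2.73 and 23.8 CPM. The gamma constant gene Tcrg-C1 had 10.1, 20.4, 14.1, 1.13 and 10.3 CPM, highest in control 2 and lowest in disease 4.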

How the data were processed

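The values deposited by the authors are unnormalised UMI counts, a gene by barcode matrix for each library. Per the file headers they were made with Cell Ranger 3.1.0, and the submitters' processing notes list Cell Ranger 3, Seurat 3, mm10 and GRCh38 with no role. All deposited barcodes were used, with no doublet caller. UMI counts summed per library over T, CD8 or CD4 barcodes were tested over all genes with edgeR 4.0.16 (TMM, filterByExpr, quasi-likelihood, Benjamini-Hochberg, threshold 0.05) in R 4.3.3, after a check on simulated data. DESeq2 1.42.0 was an alternative. Sharing was compared by exact permutation (10 arrangements of the group labels or 32 sign patterns). A count of 0 was read as allowing 3. Sequences and positions come from GENCODE M21 (GRCm38), where all 163 rows matched by identifier, and identity from edlib 1.3.9.post1. Named segments were the 6 Trbv and 8 Trav with the highest mean CD8 share and 4 of each for CD4, the 4 largest differences in CD8 share in each direction, called segments, leading and recurrent pairs, invariant segments and constant genes. Trav17, Trbv12-2 and Trbv15 in the fits, second alpha segments and J segments were chosen after their values were seen. The members and lists were chosen with earlier results of these data known. The summed T barcodes held 489336 to 15011903 UMIs per library, lowest in control 2 and next in disease 3, which held the fewest T barcodes. The sums of a list of naive and memory genes are not reported here.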

Additional observations from a re-analysis of the deposited data

How the results depend on the processing

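Leaving out each library in turn gave 2 to 6 called V segments for CD8 against CD4 (3 with all), beside 93 of 3547 to 252 of 5708 genes. For disease against control each disease library was left out in turn. This gave 0 to 1 in all T (0 with all), 0 to 1 in CD8 (1 with all) and 0 in CD4 barcodes (0 with all). Over all genes 1 to 383, 0 to 222 and 0 to 71 were called in these fits. For CD8 against CD4, 31 were called with no filter on low counts (beside 497 of 18209 genes), 1 without mixed barcodes (176 of 2702 genes, where none of Trbv31, Trbv5 and Trbv12-1 was tested), 5 for families (201 of 4203) and 1 with no replicate block (23 of 4200), that is without the library term, where Trbv31 passed. For disease against control, DESeq2 called 4 in all T (618 of 11417 genes) and 2 in CD8 barcodes (327 of 10760), and no filter gave 13, 28 and 8 in all T, CD8 and CD4 barcodes (887 of 18822, 886 of 18005 and 242 of 14215 genes). In CD8 barcodes 2 were called without mixed barcodes (363 of 8223) and 0 for families (383 of 10734). No paired analysis was possible for disease against control because the libraries of the groups carry different replicate numbers. Differences in sharing between genotypes changed sign when a library was left out for Trbv in CD8 (-7.59 to 3.98 percentage points), Trav in CD4 (-0.656 to 1.67) and pairs in CD4 barcodes (-0.132 to 1.81). The share of recurrent pairs was recomputed under alternatives chosen after seeing the data: in control 1 it was 79.4% for families and 63.4% without mixed barcodes, in disease 4 82.1% with calls of at least 2 UMIs, 83.3% for families, 79.1% with at least 3 Cd3 UMIs and 80.0% without mixed barcodes, and in disease 5 73.6% for families. The cause was not tested. Control 2 and disease 3 had the fewest paired CD8 barcodes, 28 and 54, at median CD8 depths of 5232 and 4237 UMIs. The part of barcode number in their shares was not tested.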
